A study of Rattus norvegicus with 4 samples.

Results

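The 9 genes described here govern how glucose enters a cell and how lactate is made and moved across its membrane. They are the glucose transporter genes Slc2a1, Slc2a3 and Slc2a4, Txnip and Tbc1d4 (which restrain or gate glucose entry), the lactate dehydrogenase genes Ldha and Ldhb, and the lactate transporter genes Slc16a1 and Slc16a3. They were chosen by name from the authors' gene table, in which each name belonged to 1 gene identifier, so they are 9 of 32883 listed genes. RNA was measured by strand-specific RNA-seq after removal of ribosomal RNA, in ventricular cardiomyocytes taken from Sprague-Dawley rats at postnatal day 2. There were 2 libraries of cells given 20 µM phenylephrine (PE) for 24 h and 2 libraries of untreated control cells. PE is an agonist of alpha-1 adrenergic receptors that is widely used to induce hypertrophic growth of cultured cardiomyocytes. Both groups were kept in high-glucose medium containing pyruvate and serum, and cells that attached quickly had been removed first, a step that depletes other cell types without removing them fully. The protocol text names PE for all samples, so the groups were taken from each sample's treatment label. The labels do not say that the libraries came from separate cultures, and the p-values then reflect only how far these libraries differ, possibly for technical reasons.

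Glucose crosses the cell membrane through facilitative carriers. In heart muscle the carrier encoded by Slc2a1 (GLUT1) sits largely at the surface and supplies basal uptake, and the carrier encoded by Slc2a4 (GLUT4) waits in vesicles until insulin or contraction brings it to the surface. Pyruvate made by glycolysis is reduced to lactate by lactate dehydrogenase, a tetramer of A subunits (Ldha), typical of fast glycolytic muscle, and B subunits (Ldhb), typical of the heart. Lactate then crosses the membrane with a proton through monocarboxylate transporters. The fetal heart relies more on glucose and lactate than the adult heart, which draws mostly on fatty acids.

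In PE cells the lactate transporter gene Slc16a3 was 9.12-fold and Ldha 2.09-fold as high as in control cells, while Slc2a4 was 2.91-fold and Tbc1d4 1.85-fold lower. Slc2a1, Txnip, Ldhb and Slc16a1 did not pass the test, and Slc2a3 was listed at 0 counts in every library. Of the 8 members tested, 2 were higher and 2 lower at an adjusted p under 0.05 (edgeR's quasi-likelihood test, adjusted over all 15257 tested genes). The background was 15.7% of all tested genes called, with 7.39% higher and 8.3% lower. The 9th member, Slc2a3, was not tested. In each of the 8 the PE and control libraries did not overlap, with PE above control in 5 and below in 3. Among all tested genes 56.7% did not overlap, 28.5% with PE above and 28.1% with PE below. No tested member passed the filter on low counts through 1 group alone, since the lowest count of any of them in any library was 722, that of Slc16a3 in control replicate 2. Levels are given as CPM, read counts scaled to a common library size with TMM factors. The plot of CPM by library shows each value.

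**Figure D1:**
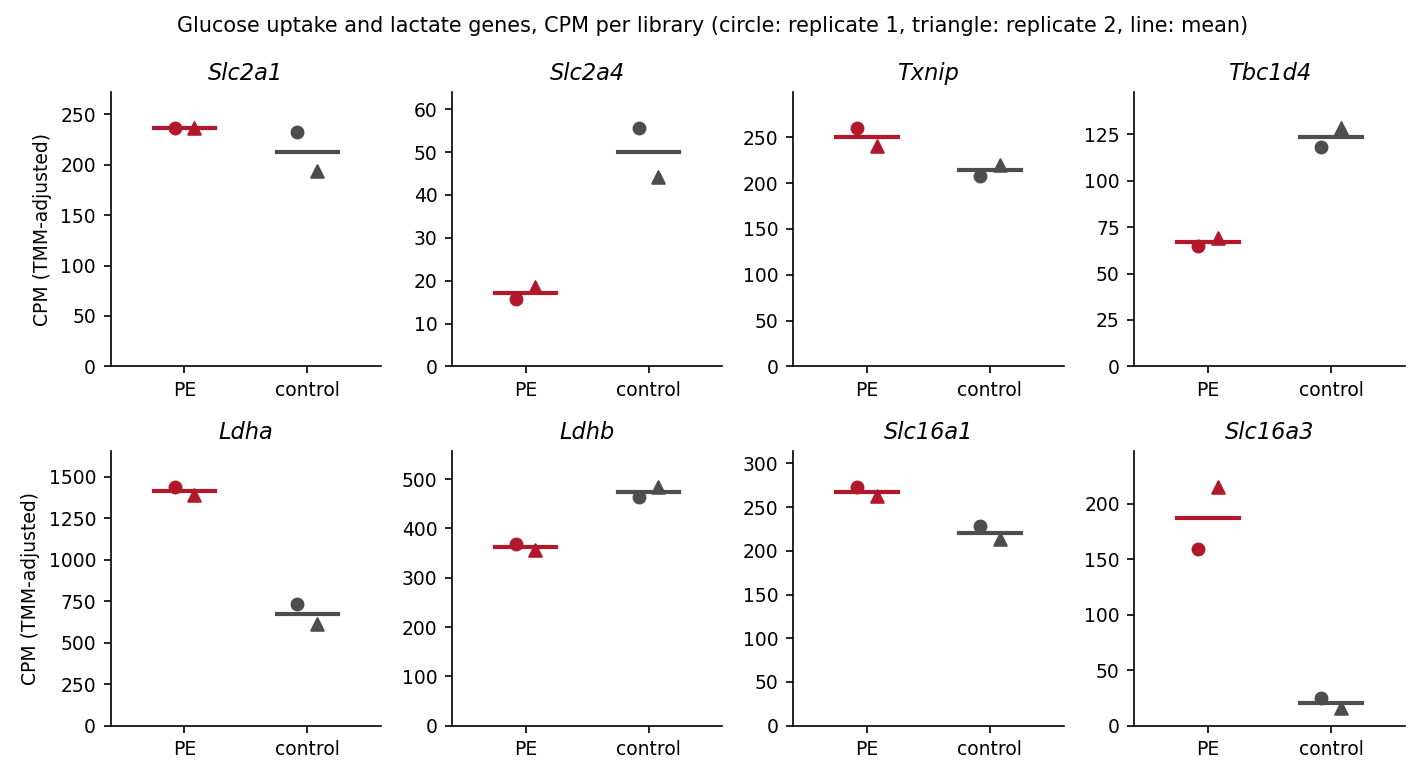
CPM of the 8 tested genes in each library (y axis, linear and starting at 0), with PE on the left and control on the right of each panel; circles are replicate 1, triangles replicate 2 and lines the mean of 2. The Slc16a3 and Ldha panels have both PE points above the control points, at 160 to 215 CPM and 1388 to 1439 CPM, and the Slc2a4 and Tbc1d4 panels have both PE points below, at 15.7 to 18.6 CPM and 64.8 to 68.9 CPM.

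Total counts were 48075810 to 56948370 in the PE libraries and 45637881 to 51917449 in the control libraries. The natriuretic peptide gene Nppa, the usual marker of the hypertrophic response, had 3565 and 3250 CPM in PE libraries and 172 CPM in each control library, which is the direction that the labels call for. Mitochondrial-genome transcripts took 4.61% and 4.76% of counts in the PE libraries, against 6.19% and 11.7% in control replicates 1 and 2. The 7 cardiomyocyte markers summed to 10418 and 11433 CPM in PE libraries and 10680 and 11713 CPM in control libraries, with 1 higher (Myl2, 0.71 on the log2 scale, edgeR adjusted p = 0.0217) and Actn2 and Myh6, which did not pass, at 0.60 and -0.54. Of 7 tested fibroblast markers 2 fell (Col3a1 and Pdgfra), 5 did not pass, and the list of 8 summed to 10082 and 9994 CPM in PE libraries against 18165 and 16275 CPM in control libraries. Collagen genes and Postn made up most of that difference, while Dcn, Lum and Tcf21, which did not pass, were at 0.50, 0.11 and 0.04. Of 6 endothelial markers 4 fell, with sums of 130 and 134 CPM in PE libraries against 215 CPM in both control libraries. Of 7 macrophage or leukocyte markers 2 fell, with sums of 95.9 and 99.4 CPM in PE libraries against 144 and 157 CPM in control libraries. Mesothelial markers summed to 78.9 and 86.9 CPM in PE libraries against 155 and 123 CPM in control libraries, with 1 of 4 higher and 2 lower, and those of pericytes or smooth muscle to 740 and 890 CPM against 757 and 568 CPM, with 1 of 5 higher. The gene table named 6 of 7 listed endothelial and 4 of 5 listed erythroid markers. Erythroid markers summed to 0.125 and 0.233 CPM in PE libraries against 0.54 and 0.549 CPM in control libraries, with 1 tested and lower. Neuron or glia markers summed to 6.73 and 5.06 CPM against 5.93 and 8.07 CPM, with 2 tested and none called. No marker named in the gene table was at 0 in all libraries, although the fibroblast gene Col1a2 had at most 5 counts. The part of these differences in the results below was not tested, and in bulk RNA fewer cells of a type and less RNA per cell cannot be told apart.

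The insulin-responsive glucose transporter gene Slc2a4 (ENSRNOG00000017226) fell with PE. It had 15.7 and 18.6 CPM in PE libraries, against 55.7 and 44.2 CPM in control libraries. Both PE libraries lay far below both control libraries, and the gap between groups exceeded the gap between libraries of either group. Its log2 fold change was -1.54 ± 0.19 (SE, n = 2 each; edgeR adjusted p = 0.000439), and it was called in all 11 alternative fits, between -1.70 and -1.36. Among the 15257 tested genes ranked from the largest rise to the largest fall, it stood at rank 14791.

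Slc2a1 (ENSRNOG00000007284), the gene of the basal transporter, did not pass. It had 236 CPM in each PE library, against 232 and 193 CPM in control replicates 1 and 2. Control replicate 1 lay just under the PE libraries, and the spread between the controls was larger than the difference of the means. The log2 fold change was 0.15 ± 0.16 (edgeR adjusted p = 0.596). Its 95% interval of -0.21 to 0.52 leaves room for a small fall, no change or a modest rise. Leaving out control replicate 1 put it at 0.30, and leaving out control replicate 2 put it at 0.03.

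Slc2a3 (ENSRNOG00000049298), the gene of the high-affinity transporter GLUT3 that is best known from neurons, was listed at 0 counts in all 4 libraries. A count of 0 allows up to 3 counts per library, or 0.0534 to 0.0658 CPM, a limit that covers counting error only. How reads matching several places were counted is not given in the sources used here, so this value describes the table and not the transcript.

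Tbc1d4 and Txnip act on the transporters after they are made. Tbc1d4 (ENSRNOG00000009431) encodes AS160, a Rab GTPase-activating protein that holds GLUT4 vesicles inside the cell until Akt phosphorylates it. It had 64.8 and 68.9 CPM in PE libraries, against 118 and 128 CPM in control libraries. Replicates lay close together in both groups, and the PE values were all below the control values. The log2 fold change was -0.88 ± 0.16 (edgeR adjusted p = 0.00399). The call was lost without PE replicate 1 (-0.84, adjusted p = 0.166) and without PE replicate 2 (-0.92, adjusted p = 0.102), fits in which the more variable control pair alone gave the spread.

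Txnip (ENSRNOG00000021201) encodes an alpha-arrestin that promotes internalisation of GLUT1 and GLUT4 and whose transcription follows glucose. It had 260 and 241 CPM in PE libraries, against 208 and 220 CPM in control libraries. The PE libraries were both higher, but the log2 fold change of 0.23 ± 0.16 did not pass (edgeR adjusted p = 0.385; 95% interval -0.12 to 0.58).

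**Figure D2:**
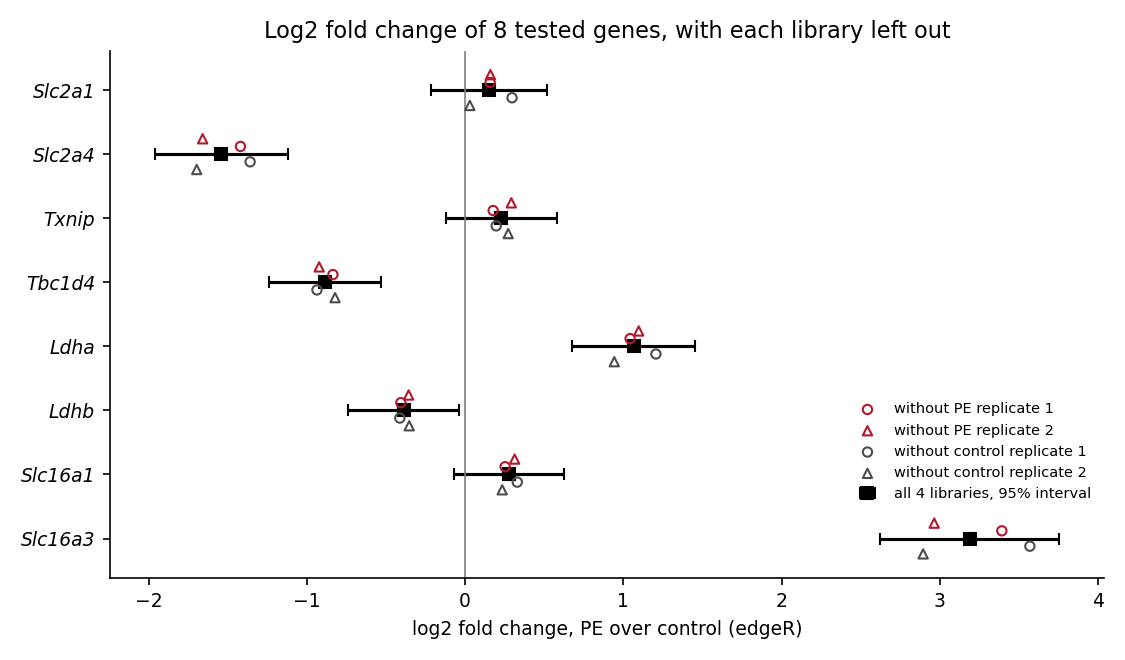
Log2 fold change of PE over control (x axis) for each tested gene, with black squares and bars for the fit on all 4 libraries and its 95% interval, and open symbols for fits that leave out 1 library. Slc16a3 at 3.19 and Ldha at 1.06 lie right of 0 in every fit shown and Slc2a4 at -1.54 and Tbc1d4 at -0.88 lie left of it, while the intervals of Slc2a1, Txnip and Slc16a1 cross 0.

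Of the lactate dehydrogenase genes, Ldha rose and Ldhb did not pass. Ldha (ENSRNOG00000013009), which encodes the A subunit, had 1439 and 1388 CPM in PE libraries, against 736 and 615 CPM in control libraries. The PE libraries agree closely and both are well above the controls. Its log2 fold change was 1.06 ± 0.18 (n = 2 each; edgeR adjusted p = 0.00247), with adjusted p-values of 3.38e-16 to 0.0313 over 11 alternatives. Ldha has processed pseudogene copies in rodents, and reads shared with them make its values uncertain.

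Ldhb (ENSRNOG00000013000), which encodes the B subunit, had 368 and 356 CPM in PE libraries, against 463 and 484 CPM in control libraries. Both PE libraries were lower. The log2 fold change of -0.39 ± 0.16 had an unadjusted p of 0.0335 and did not pass after adjustment (edgeR adjusted p = 0.132). It passed without control replicate 1 (-0.41, adjusted p = 0.0139) or control replicate 2 (-0.35, adjusted p = 0.0386), fits that took their spread from the PE pair alone. The authors' deposited table likewise lists Ldhb at an adjusted p of 0.113 and Ldha at 1.02e-07.

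The promoters of this pair are shown because Ldha rose, Ldhb is its partner in the enzyme, and Ldha is a textbook target of the hypoxia-inducible factors and of Myc, which bind short motifs. The sequences are the 250 bases before the gene start in RefSeq on build GRCr8, read along the gene's strand, at chr1:106507842-106508091 (plus strand) for Ldha and chr4:177177409-177177658 (minus strand) for Ldhb. Capitals mark matches on either strand to ACGTG or GCGTG, the core of the hypoxia-response element.
Ldha: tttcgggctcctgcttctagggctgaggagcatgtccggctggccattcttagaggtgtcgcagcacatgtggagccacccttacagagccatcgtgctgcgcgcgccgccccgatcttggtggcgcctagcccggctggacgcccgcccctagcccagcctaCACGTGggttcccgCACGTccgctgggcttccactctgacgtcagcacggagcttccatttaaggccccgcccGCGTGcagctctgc
Ldhb: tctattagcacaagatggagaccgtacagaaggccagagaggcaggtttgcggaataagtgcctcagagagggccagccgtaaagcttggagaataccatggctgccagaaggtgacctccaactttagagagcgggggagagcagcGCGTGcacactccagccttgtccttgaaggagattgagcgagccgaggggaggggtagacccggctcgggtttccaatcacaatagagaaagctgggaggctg
The Ldha window held 3 matches to ACGTG and 1 to GCGTG. Of the 3, 2 overlapped in a single CACGTG, the E-box bound by Myc and its relatives, 87 bases before the start. The Ldhb window held 1 match, to GCGTG, and no CACGTG. Of 33469 rat promoter windows of the same length, 36.7% held ACGTG or GCGTG and 5.59% held CACGTG. These shares are for at least 1 match, and no share was computed for the number of matches in a window. G and C made up 66.4% of the bases in the Ldha window and 56.4% in the Ldhb window. These matches describe letters only and show no binding. The transcripts of Hif1a, Epas1 and Arnt, which encode subunits of the hypoxia-inducible factors, and of Myc did not pass. Their log2 fold changes were 0.02, -0.06, -0.245 and 0.08 (edgeR adjusted p = 0.949, 0.86, 0.361 and 0.781). Whether these factors act on the members here was not tested.

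The monocarboxylate transporter genes also differed. Slc16a3 (ENSRNOG00000036677) encodes MCT4, the carrier through which strongly glycolytic cells release lactate. It had 160 and 215 CPM in PE libraries, against 25.2 and 15.8 CPM in control libraries. The groups were far apart, although replicates of this gene differed more than those of any other tested member, by 0.43 on the log2 scale in PE and 0.67 in control. The log2 fold change was 3.19 ± 0.25 (n = 2 each; edgeR adjusted p = 4.2e-05). This was rank 60 from the top among 15257 tested genes, and the value lay between 2.89 and 3.57 over 11 alternatives.

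Slc16a1 (ENSRNOG00000019996) encodes MCT1, the widely expressed carrier through which heart muscle takes up lactate. It had 273 and 262 CPM in PE libraries, against 228 and 214 CPM in control libraries. Both PE libraries were above both controls, but the log2 fold change of 0.28 ± 0.16 did not pass (edgeR adjusted p = 0.282; 95% interval -0.07 to 0.62). For these carriers the same 250-base windows are shown with the same capitals, at chr10:106712078-106712327 (plus strand) for Slc16a3 and chr2:194812410-194812659 (plus strand) for Slc16a1, because Slc16a3 changed most of all members and is another textbook target of the hypoxia-inducible factors.
Slc16a3: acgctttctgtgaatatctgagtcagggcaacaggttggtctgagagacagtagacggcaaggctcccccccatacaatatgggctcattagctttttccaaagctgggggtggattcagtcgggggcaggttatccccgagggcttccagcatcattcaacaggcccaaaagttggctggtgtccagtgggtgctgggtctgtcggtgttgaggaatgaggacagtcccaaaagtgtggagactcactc
Slc16a1: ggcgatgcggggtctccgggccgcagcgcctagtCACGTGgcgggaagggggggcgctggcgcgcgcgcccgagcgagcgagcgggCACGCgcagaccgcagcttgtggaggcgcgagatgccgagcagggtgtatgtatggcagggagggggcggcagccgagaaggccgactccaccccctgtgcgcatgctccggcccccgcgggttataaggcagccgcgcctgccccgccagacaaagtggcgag
The Slc16a3 window held no match, which says only that these letters are not in this window. The Slc16a1 window held 1 CACGTG, counted as 2 overlapping matches to ACGTG, and 1 match to GCGTG. G and C made up 54% of the bases in the Slc16a3 window and 74% in the Slc16a1 window. Of the other members, the Slc2a1 window held 1 match to ACGTG and 3 to GCGTG, and the Tbc1d4 window held 1 match to ACGTG. Promoter windows were matched for 6 of the 9 members and not for Slc2a3, Slc2a4 and Txnip.

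Ratios of counts between related genes within a library are independent of library size, and gene length cancels when they are compared between libraries. The Ldha to Ldhb ratio was 3.91 and 3.90 in PE libraries, against 1.59 and 1.27 in control libraries. On the log2 scale this ratio averaged 1.96 ± 0.0033 in PE libraries and 0.51 ± 0.23 in control libraries (SD, n = 2 each), a difference of 1.46. The Slc2a1 to Slc2a4 ratio was 15.0 and 12.7 in PE libraries, against 4.17 and 4.38 in control libraries, a log2 difference of 1.69. The ratio of Slc16a3 to Slc16a1 was 0.585 and 0.820 in PE libraries, against 0.111 and 0.0741 in control libraries, a log2 difference of 2.94. In all 3 ratios the PE libraries lay above the control libraries with no overlap. The share of gene pairs without overlap was not computed, and among single tested genes 56.7% did not overlap. The ratios use the same counts as the fold changes above and are not a separate result. The exact permutation test (two-sided) gave p = 0.333 for each, the smallest value that 2 against 2 samples allow, so it cannot reach 0.05. Because gene lengths were not used, the ratios do not say which gene of a pair has more transcripts.

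**Figure D3:**
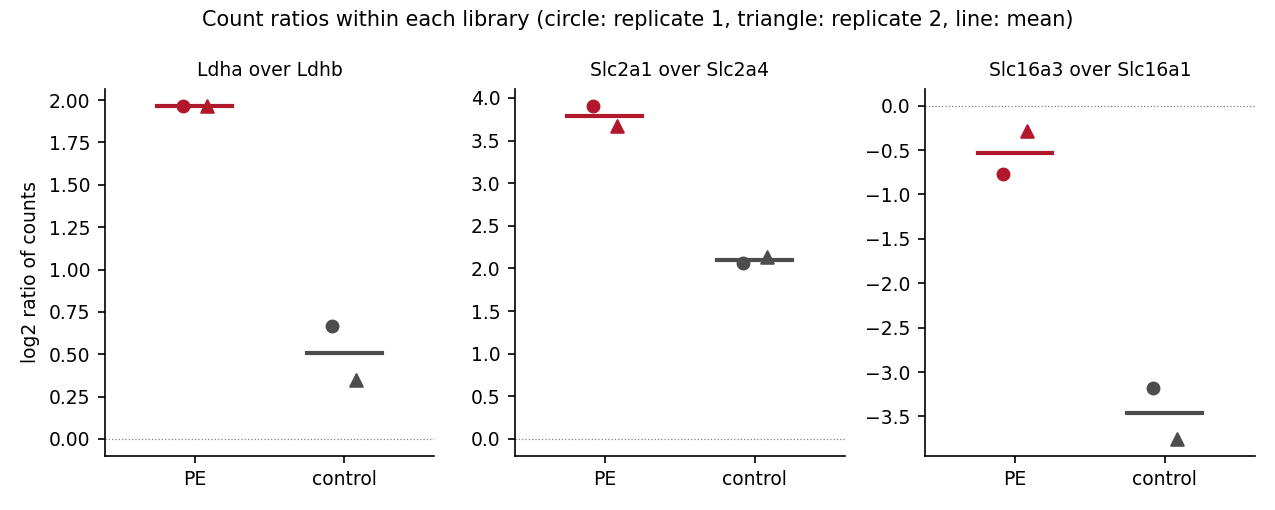
Log2 ratio of counts of related genes within each library (y axis; 0, where counts are equal, is dotted), with PE left and control right, circles for replicate 1, triangles for replicate 2 and lines for means. All 3 ratios are higher in PE, by 1.46 for Ldha over Ldhb, 1.69 for Slc2a1 over Slc2a4 and 2.94 for Slc16a3 over Slc16a1.

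Other genes of glucose entry were called in both directions. Over all tested genes the median log2 fold change was -0.01, and 1127 of 15257 were higher (7.39%) and 1266 lower (8.3%). The following counts are read against these shares. Among 6 tested sugar transporter genes outside the members, 1 rose (Slc2a6, a lysosomal hexose transporter, 0.88 ± 0.25, edgeR adjusted p = 0.0389) and 5 did not pass, with a list median of 0.20; Slc2a6 was not called without PE replicate 2 (0.74, adjusted p = 0.21), and 2 of the list were higher without control replicate 1. Of 26 tested genes of GLUT4 traffic and insulin signalling, 2 rose, 2 fell and 22 did not pass, with a median of 0.02. In each direction the share called in this list was near that of all tested genes. Rhoq, a small GTPase of insulin-stimulated vesicle traffic, rose by 0.99 ± 0.16 (edgeR adjusted p = 0.00195), and Tbc1d1, the relative of Tbc1d4 that is prominent in skeletal muscle, rose by 0.62 ± 0.17 (adjusted p = 0.0332). Irs1, the adaptor of the insulin receptor, fell by 0.99 ± 0.17 (edgeR adjusted p = 0.00323), and Sort1, the sortilin of GLUT4 storage vesicles, fell by 0.95 ± 0.16 on the log2 scale (adjusted p = 0.00299). Without PE replicate 1 none of these 4 was called, and without PE replicate 2 Tbc1d1 and Sort1 were not (adjusted p = 0.389 and 0.0927). Without control replicate 1 the list had 5 higher and 4 lower, without control replicate 2 it had 4 higher, and Tbc1d1 was not called with the replicate number as a block (adjusted p = 0.125). None of the 4 tested alpha-arrestin genes other than Txnip passed in edgeR, with 1 at an unadjusted p under 0.05 and 1 called by DESeq2. In edgeR 1 was higher with no filter or without control replicate 2, and 1 was higher and 1 lower without control replicate 1. Of these, Arrdc4, which like Txnip follows glucose, was at 0.56 ± 0.18 (edgeR adjusted p = 0.0691) and Arrdc3 at -0.39 ± 0.23 (adjusted p = 0.308).

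Among 11 other tested genes of the monocarboxylate carrier family and its chaperones, 1 rose, 2 fell and 8 did not pass, with a median log2 fold change of -0.34. For all tested genes the shares were 7.39% higher and 8.3% lower. Slc16a6, a carrier that exports ketone bodies in zebrafish, had 6.22 and 5.34 CPM in PE libraries, against 0.689 and 1.01 CPM in control libraries, and rose by 2.77 ± 0.28 (edgeR adjusted p = 0.00015). Slc16a10, an aromatic amino acid carrier, fell by 2.16 ± 0.22 (edgeR adjusted p = 0.000144). Slc16a14, a family member without an established substrate, fell by 1.14 ± 0.23 (edgeR adjusted p = 0.00764) and was not called without PE replicate 2 (-1.08, adjusted p = 0.0532). Leaving out either control replicate gave 2 of this list higher. Bsg, which encodes basigin, the chaperone that carries both MCT1 and MCT4 to the surface, is given outside the rule for naming genes, after its value was seen: it was at -0.06 ± 0.17 and did not pass (edgeR adjusted p = 0.873). None of 5 other tested genes of lactate and pyruvate handling passed in edgeR or DESeq2, or had an unadjusted p under 0.05. Those with the highest CPM were Mpc1, a subunit of the mitochondrial pyruvate carrier, at 0.16 ± 0.16 and Glo1, which detoxifies methylglyoxal, at 0.14 ± 0.17 (edgeR adjusted p = 0.573 and 0.642).

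Between glucose entry and lactate lie the glycolytic enzymes, of which 6 of 21 tested rose, 2 fell and 13 did not pass, with a median log2 fold change of 0.36. The shares of all tested genes were 7.39% higher and 8.3% lower. Muscle and non-muscle forms went opposite ways in phosphoglycerate mutase: Pgam2, the muscle form, fell by 3.17 ± 0.22 on the log2 scale and Pgam1, the form found in most tissues, rose by 1.26 ± 0.16 (edgeR adjusted p = 2.24e-05 and 0.000555). Of phosphofructokinase, Pfkp was 3.08-fold and Pfkl 2.82-fold as high in PE cells as in control cells (edgeR adjusted p = 0.000163 and 0.00118), while Pfkm, the muscle form and the other glycolytic gene that fell, was at -1.07 ± 0.16 (adjusted p = 0.00159) and was not called without PE replicate 1 (-1.01, adjusted p = 0.0646). The number of glycolytic genes called higher was 12 without control replicate 1, and the number called lower was 1 without PE replicate 1. Pfkm is given outside the rule for naming genes. Its absolute change was smaller than those of Pgk1, Pkm and Eno1, called higher at 1.14, 1.11 and 1.07 on the log2 scale. Without PE replicate 2, Eno1 was not called (0.92). Eno3, the muscle form of enolase, had the same sign as Eno1, at 0.36 ± 0.17, and did not pass (edgeR adjusted p = 0.195). Eno3 is also given outside the rule for naming genes. Several of the glycolytic genes have processed pseudogenes, and reads shared with them are uncertain.

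Among genes known to regulate the members, all calls were downward. Of 18 tested, 5 fell, against 8.3% of all tested genes, 13 did not pass and none rose in edgeR or DESeq2 or had an unadjusted p under 0.05 upward, with a median of -0.28. Klf15, a transcription factor that raises Slc2a4 in heart muscle cells, fell by 1.58 ± 0.19, and Ppara, the nuclear receptor of fatty acid oxidation, fell by 1.22 ± 0.17 (edgeR adjusted p = 0.00036 and 0.000965). Ppargc1a, a coactivator of oxidative metabolism, fell by 0.99 ± 0.18, and Foxo1, a factor restrained by insulin, fell by 0.92 ± 0.18 (edgeR adjusted p = 0.00382 and 0.00588). Without PE replicate 1, Ppargc1a and Foxo1 were not called (adjusted p = 0.13 and 0.151) and 2 of the 18 fell; without PE replicate 2, Foxo1 was not called (adjusted p = 0.0738) and 3 fell; without control replicate 1, 8 fell.

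Other genes commonly induced by hypoxia were set beside Ldha and Slc16a3. Of 18 tested, 4 rose, 14 did not pass and none fell in edgeR or DESeq2, with 1 lower at an unadjusted p under 0.05 and a median log2 fold change of 0.34. Of all tested genes 7.39% were higher and 8.3% lower. Those that rose were Bnip3, a mitophagy receptor, at 1.00 ± 0.17, P4ha1, a collagen prolyl hydroxylase subunit, at 0.90 ± 0.16, Egln3, an oxygen-sensing prolyl hydroxylase, at 0.83 ± 0.18 and Ero1a, an oxidase of protein folding, at 0.70 ± 0.17 (edgeR adjusted p = 0.00266, 0.00414, 0.011 and 0.0167). Without PE replicate 1 none of the 18 was called higher (adjusted p for these 4 = 0.0771, 0.117, 0.0794 and 0.301), and without PE replicate 2 Bnip3 alone was. Leaving out either control replicate gave 7 higher, with 1 lower when it was replicate 2. Ero1a was also not called with the replicate number as a block (adjusted p = 0.0679).

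**Figure D4:**
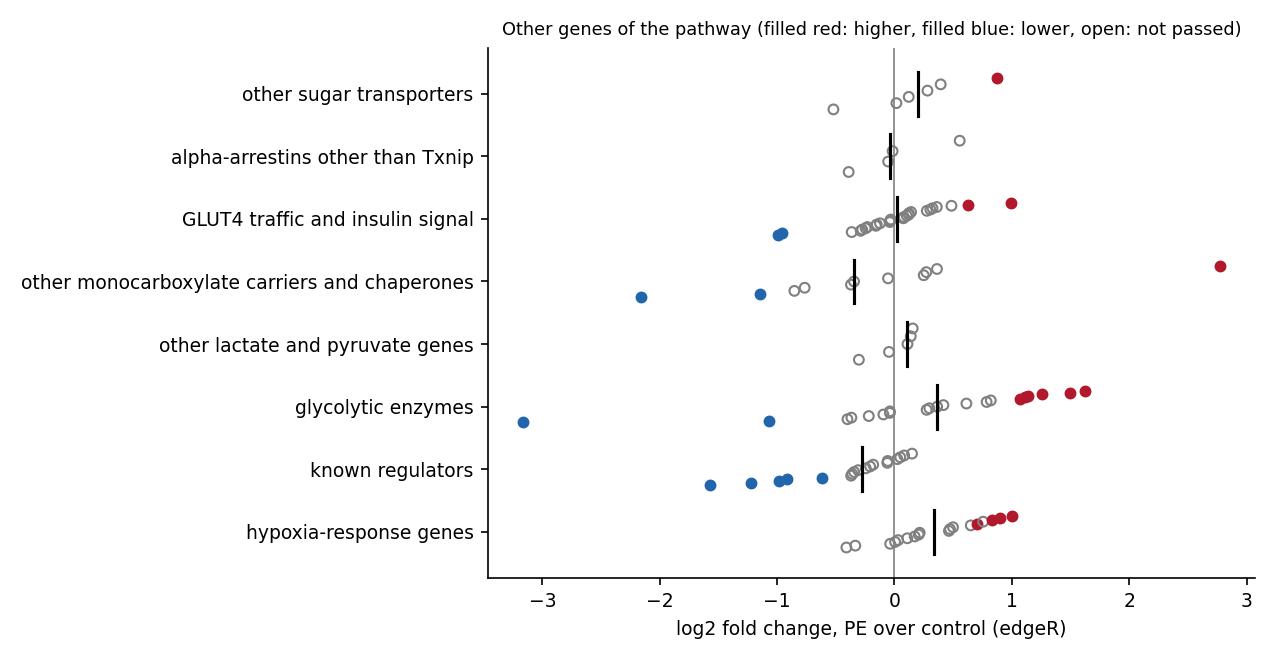
Log2 fold change of PE over control (x axis) of each tested gene in 8 lists of related genes, 1 point per gene, filled red where higher, filled blue where lower and open where the test was not passed; the black bar is the list's median. Medians run from -0.34 for other monocarboxylate carriers to 0.36 for glycolytic enzymes; the lowest point is the glycolytic gene Pgam2 at -3.17 and the highest is Slc16a6 at 2.77.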

How the data were processed

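The authors deposited raw counts per gene for 4 libraries. Cutadapt 2.0, STAR 2.4.2a, featureCounts 1.6.4 and the build Rnor_6.0 are named, without order or settings, per the submitters' processing notes; neither the annotation release nor how strand was treated in counting is given there, so reads of overlapping or antisense genes are uncertain. The authors' deposited comparison table gives per gene a log2 fold change, its p-value and adjusted p-value, a score (the test statistic) and a mean normalized signal, per the file headers; gene names came from it.

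Counts were tested as deposited with edgeR 4.0.16 (limma 3.58.1, R 4.3.3): quasi-likelihood F test, TMM factors, default filter (minimum count 10, minimum total 15), which kept 15257 of 32883 genes, with Benjamini-Hochberg adjustment over them and a threshold of 0.05. SE is the log2 fold change divided by the square root of F. The biological coefficient of variation was 0.157. The fit was tested on simulated counts. DESeq2 1.42.0 was an alternative; its log2 fold changes differed from the authors' by at most 2.35e-09. Libraries within a group differed beyond counting noise (chi-square per degree of freedom 23.4 for PE and 161 for control), so none was a copy. Other alternatives were 3 further scalings, no filter, mitochondrial genes left out, each library left out and a replicate block.

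The members and gene lists were chosen with earlier results of these data known. All members were named. Bsg, Pfkm, Pgk1, Pkm, Eno1, Eno3, Hif1a, Epas1, Arnt and Myc were named outside the rule for lists. By that rule, of each list up to 4 called genes with the largest absolute change were named, or the 2 with the highest mean CPM where none was called. That ranking is not per length, and levels are otherwise not compared between genes, because no transcript lengths were used.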

Additional observations from a re-analysis of the deposited data

How the results depend on the processing

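Slc16a3, Ldha and Slc2a4 were called in the same direction in all 11 alternatives, and Slc2a1, Txnip and Slc16a1 in none. The number of members called higher was 2 in every fit. The number called lower ranged from 1 (without either PE library, Tbc1d4 being lost) to 3 (without either control library, Ldhb being gained), and the number of all genes called ranged from 1205 to 4755 as single libraries were left out. With 1 library left in a group, the lone library is assumed to vary like the other pair. No scaling moved the median log2 fold change of all genes by more than 0.05. Same-numbered libraries are not stated to share a culture, and their deviations from the group means correlated at -0.388 across genes. The replicate block called 1964 genes and the same numbers of members. Pairing the numbers crosswise, chosen after seeing the data, called 4677 genes, with 2 members higher and 3 lower; the cause was not tested. The ratio differences ranged over left-out libraries from 1.30 to 1.62 for Ldha over Ldhb, 1.57 to 1.82 for Slc2a1 over Slc2a4 and 2.65 to 3.22 for Slc16a3 over Slc16a1. Of 198 recomputed list counts, 28 moved by more than 1.5 times. With 2 libraries per group, differences the size of those of Slc2a1, Txnip and Slc16a1 did not pass the test, which takes the spread partly from other genes.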

Other observations

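For Slc16a3 and Slc2a4, the members with the highest and lowest log2 fold change, the genes with the closest profiles were sought among 11359 tested genes (mean log2 CPM 1 or more), by the Euclidean distance between log2 CPM values centred over the 4 libraries. Closest to Slc16a3 were Krt80, a keratin, Ildr2, an immunoglobulin-like domain receptor, and Hs3st2, a heparan sulfate sulfotransferase, at distances of 0.18, 0.26 and 0.35. Krt80 had 12.9 and 15.8 CPM in PE libraries and 1.57 and 0.965 CPM in control libraries, and Ildr2 had 56.3 and 64.8 CPM in PE libraries and 6.63 and 4.65 CPM in control libraries. Like Slc16a3, each of these had its lower control value in replicate 2 and its higher PE value in replicate 2. Choosing genes by their closeness over the 4 libraries favours such a shared order, so it is not a separate result.

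Closest to Slc2a4 were Pdk2, a kinase that restrains pyruvate dehydrogenase, Kcnk3, a background potassium channel, and Gal3st3, a galactose sulfotransferase, at distances of 0.06, 0.07 and 0.09. Pdk2 had 47.2 and 55.9 CPM in PE libraries and 157 and 128 CPM in control libraries. Kcnk3 had 80.8 and 91.0 CPM in PE libraries and 264 and 212 CPM in control libraries. With 4 libraries, many genes share such a profile, and closeness here is a description.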
